A study of Mus musculus with 18 samples.

Results

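The 10 genes described here encode the insulin-like growth factor (IGF) system: the ligands Igf1 and Igf2, the receptors Igf1r and Igf2r, and the binding proteins Igfbp2, Igfbp3, Igfbp4, Igfbp5, Igfbp6 and Igfbp7. They were taken by gene symbol, with earlier results of these data known, and were 10 of the 24054 genes in each table. RNA-Seq was performed on hypothalamus, pituitary and thyroid of male mice, 3 months of age and untreated, on the C57BL/Ntac strain. WT mice 1, 2 and 43 were compared with K146Q mice 60, 62 and 83, which carried a mutant thyroid hormone receptor β (THRB) with 1 lysine changed to glutamine (K146Q), in every cell of the body, through a homozygous knock-in at the Thrb gene. This lysine is a site at which the small protein SUMO is attached to the receptor, and the question was what its loss does to the hypothalamus-pituitary-thyroid axis. There were 3 mice in each of the 6 groups of tissue and genotype, and the same mouse numbers recurred in the 3 tissues, giving 18 libraries with 14902330 to 21230050 reads each. Values below are read counts normalized to an adjusted size of the library (CPM), scaled by the authors in 1 normalization of all libraries, so their sums differ between libraries. They are listed for mice 1, 2, 43 and then 60, 62, 83 unless stated otherwise.

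IGF1 and IGF2 are secreted growth peptides that activate the tyrosine kinase receptor IGF1R, which signals through the insulin receptor substrates to PI3K and AKT and promotes growth and survival. IGF2R, also the mannose 6-phosphate receptor, carries IGF2 to the lysosome and has no kinase of its own. Most IGF outside cells is held by binding proteins, which prolong its life and restrain or direct its access to IGF1R, and IGFBP7 is a related protein of much lower affinity for IGF. Growth hormone from the pituitary drives Igf1 transcription in liver and other tissues, and in the thyroid gland IGF1 is known to act together with TSH on the growth of follicular cells.

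Thrb itself, whose mutation changes 1 codon, was at 27.0, 28.8 and 28.1 CPM in WT hypothalamus and 26.7, 26.1 and 30.0 in K146Q hypothalamus. In pituitary it was at 104, 97.7 and 106 in WT and 159, 142 and 184 in K146Q mice, a log2 fold change of 0.65 (adjusted p = 0.00285, limma). In thyroid it was at 14.9, 16.3 and 15.6 in WT and 7.19, 5.64 and 4.98 in K146Q mice, a log2 fold change of -1.33 (adjusted p = 6.21e-04). The gene totals do not show which base a transcript carries, so they did not test the genotype labels. The labelled tissues matched their defining markers. Pmch, which encodes melanin-concentrating hormone, led the hypothalamic neuron list in all 6 hypothalamus libraries, Gh was at 62503 to 213048 CPM in pituitary, and Tg, which encodes thyroglobulin, was at 83869 to 357296 CPM in thyroid.

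The genes lie on 7 chromosomes of the mouse genome (GRCm38, GENCODE M21). Igf1 is on chromosome 10 (87858265 to 87937042, plus strand), Igf2 on chromosome 7 (142650766 to 142666816, minus strand), Igf1r on chromosome 7 (67952827 to 68233668, plus strand) and Igf2r on chromosome 17 (12682406 to 12769664, minus strand). Igfbp2 (72824503 to 72852474, plus strand) and Igfbp5 (72857932 to 72874884, minus strand) are neighbours on chromosome 1, tail to tail, with 5457 bases between them. Igfbp3 (7206086 to 7213923, minus strand) and Igfbp4 (99041244 to 99054392, plus strand) are on chromosome 11, Igfbp6 on chromosome 15 (102144362 to 102149511, plus strand) and Igfbp7 on chromosome 5 (77349240 to 77408041, minus strand). The annotation of Igf2 overlaps Gm49394, a protein-coding gene on the same strand that has no values here. It also overlaps the antisense RNA Igf2os, which had 0 to 10 reads in any library. The annotation of Igfbp7 overlaps Polr2b, a subunit of RNA polymerase II on the other strand, which was at 62.2 to 75.5 CPM in thyroid with a log2 fold change of -0.11 (adjusted p = 0.359). Since the strand setting of the counting is not given in the sources used here, reads in these overlaps may belong to either gene. No strand setting separates Igf2 from Gm49394.

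In the thyroid the ligands Igf1 and Igf2 moved in opposite directions. Of the neighbours Igfbp2 and Igfbp5 the latter rose there, while Igfbp2, given without a test, was higher in K146Q mice. The promoter sequences of these genes are shown because the mutated protein is a transcription factor that binds DNA. Each runs 5′ to 3′ on the gene's own strand from 250 bases before to 50 bases after a RefSeq start (GRCm38.p6). Capitals mark AGGTCA, the hexamer at the core of thyroid hormone response elements, or its reverse complement TGACCT.
Igf1 promoter, chr10:87860861-87861160, plus strand: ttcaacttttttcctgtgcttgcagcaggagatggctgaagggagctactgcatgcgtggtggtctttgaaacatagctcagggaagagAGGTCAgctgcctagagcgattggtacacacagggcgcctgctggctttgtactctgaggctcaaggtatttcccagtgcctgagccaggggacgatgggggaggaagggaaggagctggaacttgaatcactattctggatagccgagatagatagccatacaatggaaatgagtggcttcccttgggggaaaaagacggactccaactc
Igf2 promoter, chr7:142666767-142667066, minus strand: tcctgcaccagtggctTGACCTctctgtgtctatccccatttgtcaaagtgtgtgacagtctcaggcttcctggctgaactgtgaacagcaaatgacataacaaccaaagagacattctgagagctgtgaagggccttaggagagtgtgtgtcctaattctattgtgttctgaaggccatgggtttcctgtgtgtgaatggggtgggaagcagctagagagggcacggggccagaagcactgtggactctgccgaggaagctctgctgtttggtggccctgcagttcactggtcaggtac
Igfbp2 promoter, chr1:72824230-72824529, plus strand: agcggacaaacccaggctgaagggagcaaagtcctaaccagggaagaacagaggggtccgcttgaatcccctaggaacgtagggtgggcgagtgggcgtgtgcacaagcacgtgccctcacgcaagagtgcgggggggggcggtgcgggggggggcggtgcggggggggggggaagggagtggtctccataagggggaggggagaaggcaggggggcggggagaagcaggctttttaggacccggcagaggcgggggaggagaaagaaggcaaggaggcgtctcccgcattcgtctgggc
Igfbp5 promoter, chr1:72874816-72875115, minus strand: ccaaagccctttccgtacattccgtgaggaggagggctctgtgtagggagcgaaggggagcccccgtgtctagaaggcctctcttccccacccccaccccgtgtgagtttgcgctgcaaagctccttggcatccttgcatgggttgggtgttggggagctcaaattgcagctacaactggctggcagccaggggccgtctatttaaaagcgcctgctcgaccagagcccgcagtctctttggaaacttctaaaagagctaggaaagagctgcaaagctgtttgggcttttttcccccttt

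All 10 genes had at least 1 promoter in the RefSeq table, 14 in all, since Igf2 had 4 and Igfbp2 had 2. AGGTCA, searched on both strands, occurred in 4 of the 14, belonging to Igf1, Igf1r, Igf2 (the 1 shown, the other 3 of Igf2 having none) and Igf2r, against 16.3% of 32851 promoters of the same length. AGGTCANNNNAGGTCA, a direct repeat of the hexamer with 4 bases between, occurred in 0 of the 14 and in 0.0152% of all promoters. TGACGTCA, the palindrome that CREB binds, occurred in 0 of the 14 and in 1.79% of all. These counts describe letters in 300-base windows, and binding was not measured here.

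In the WT mice the thyroid had the highest Igf1, Igf2r, Igfbp3, Igfbp4, Igfbp6 and Igfbp7, the pituitary the highest Igfbp5, and the hypothalamus the highest Igf2. Differences between tissues were tested with limma on log2(CPM + 0.5) in all 18 libraries, without a term for the mouse. Between pituitary and hypothalamus 8 of the 10 genes passed an adjusted p of 0.05 (73.0% of 17140 genes did), between thyroid and hypothalamus 10 (81.9%), and between thyroid and pituitary 8 (75.6%).

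**Figure D1:**
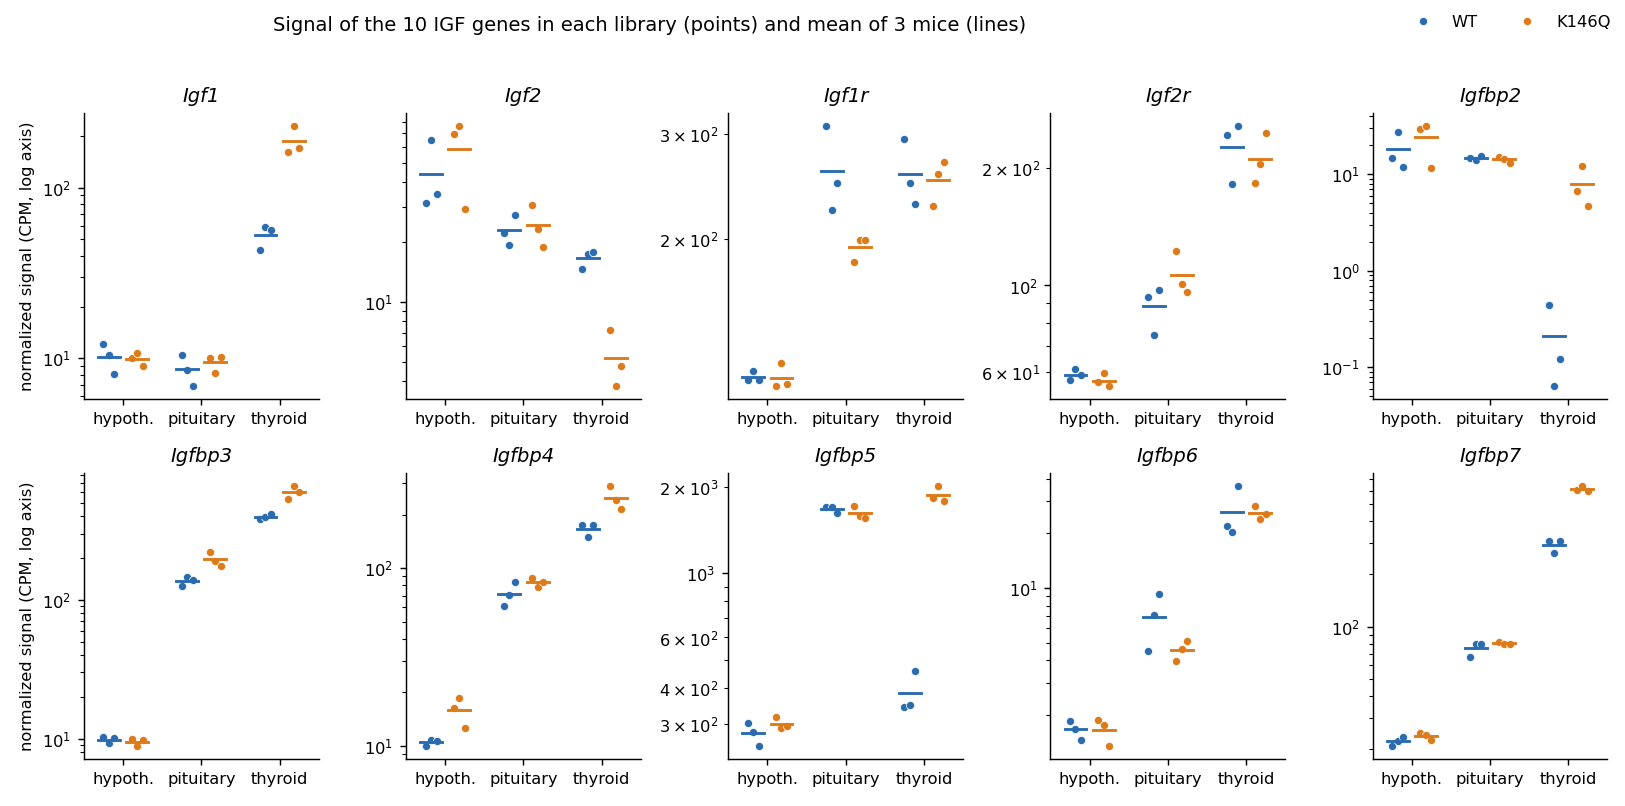
Normalized signal (CPM, log axis, separate scale for each gene) of the 10 IGF genes in hypothalamus, pituitary and thyroid. Points are the 3 WT (blue) and 3 K146Q (orange) mice and lines their means. Igf1, Igfbp5 and Igfbp7 of the K146Q thyroid lie above all WT thyroid points, Igf2 lies below them, and Igfbp2 was near 0 in the WT thyroid only.

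Igf1 was at 52.7 ± 8.19 CPM (SD, n = 3) in the WT thyroid, 10.2 ± 2.03 in hypothalamus and 8.60 ± 1.81 in pituitary, and the latter pair did not differ beyond their spread (log2 difference -0.24, 95% interval -0.60 to 0.13, adjusted p = 0.231). Igf2 ran the other way, at 43.6 ± 18.7 in hypothalamus, 22.9 ± 4.02 in pituitary and 16.5 ± 1.74 in thyroid. Its step from hypothalamus to pituitary (log2 difference -0.85, adjusted p = 0.0262) rested on WT mouse 2, without which it was -0.41 (adjusted p = 0.350), and it was also lost with totals taken without the 10 highest genes (-0.57, adjusted p = 0.117). Pituitary and thyroid did not differ beyond their spread (-0.45, interval -1.14 to 0.23, adjusted p = 0.216), though they did under that setting (-0.73, adjusted p = 0.0466).

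Igf1r was similar in WT pituitary (261 ± 44.0) and thyroid (257 ± 34.1), and 2.19 times higher in pituitary than in hypothalamus (118 ± 2.47; adjusted p = 3.29e-08). Igf2r rose in steps from hypothalamus (59.1 ± 1.85) to pituitary (88.5 ± 11.9) and thyroid (227 ± 39.3), each step past the threshold. The order of Igf1r between thyroid and pituitary depended on the scaling. It was level in the fit reported here (log2 difference -0.01, adjusted p = 0.920) but lower in thyroid after quantile normalization (-0.39, adjusted p = 0.00283) and with totals taken without the 10 highest genes (-0.30, adjusted p = 0.0134). Under the latter setting the median log2 difference of all genes was -0.27 in place of -0.03 between these tissues and 0.25 in place of 0.01 between pituitary and hypothalamus. Between thyroid and hypothalamus it was 0.13 after quantile normalization in place of 0.03.

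The binding proteins showed the widest range. Igfbp3, the main carrier of IGF in blood, was 38.6 times higher in WT thyroid (399 ± 16.5) than in hypothalamus (9.85 ± 0.478), with pituitary between (137 ± 10.2). Igfbp4, Igfbp6 and Igfbp7 followed the same order of tissues, Igfbp4 at 10.5, 71.7 and 166 in hypothalamus, pituitary and thyroid, Igfbp6 at 1.66, 6.96 and 26.3, and Igfbp7 at 22.1, 75.1 and 293. Igfbp5 was 4.39 times higher in WT pituitary (1678 ± 47.5) than in thyroid (385 ± 65.3) and was at 279 ± 25.3 in hypothalamus. Igfbp2 was at 18.1 ± 8.20 in hypothalamus and 14.6 ± 0.658 in pituitary, a pair that did not differ beyond its spread (adjusted p = 0.627), and at 0.442, 0.0633 and 0.120 in the 3 WT thyroids, which are 7, 1 and 2 reads.

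Genes whose profile over the 18 libraries was most like that of a member were found by the root mean square of the difference between profiles on the log2(CPM + 0.5) scale, each centred on its own mean, among 13764 genes. The closest pair of neighbours of Igfbp7, whose own spread was 1.74, were Nfkb2 (0.161) and Col4a1 (0.219), a chain of basement membrane collagen. Those of Igf1 (spread 1.66) were Rras2 (0.255) and Tacc2 (0.276), those of Igfbp5 (spread 1.23) Aldh3b1 (0.263) and Inhbb (0.294), and those of Igfbp3 (spread 2.36) Emp1 (0.305) and Dsg2 (0.325). Those of Igf1r (spread 0.513) were 2900026A02Rik (0.122) and Pak2 (0.136), and those of Igf2r (spread 0.797) Stt3b (0.142) and Tm9sf1 (0.147). Igfbp4 (spread 1.65) had Prickle3 (0.228) and Ifi30 (0.234), Igfbp6 (spread 1.51) Nt5e (0.283) and Pak4 (0.296), and Igf2 (spread 1.12) Kcnn1 (0.360) and Itm2a (0.383). Igfbp2 had no close neighbour, the nearest being Elmod1 at 0.640 and Ddah1 at 0.670 against its own spread of 1.76.

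In the hypothalamus no IGF gene changed by limma with Benjamini-Hochberg adjustment over 15761 genes (0% of all genes did), and edgeR and DESeq2 on the recovered reads called 0 of the 10 as well. Of the 10 genes 1, Igfbp4, was among the 4.09% of genes with an unadjusted p under 0.05. It was also the 1 gene whose genotypes did not overlap, which 9.15% of all genes did. Fold changes here and below are K146Q over WT on the log2(CPM + 0.5) scale, on which genes with few reads appear to change less than they do.

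Before the values, a feature of the hypothalamus libraries has to be given. Ttr, which encodes transthyretin and is the most abundant transcript of the choroid plexus, was at 21.4, 1098 and 23.5 CPM in the WT libraries and 1006, 1029 and 21.7 in the K146Q libraries. The summed signal of the 4 choroid plexus markers (Ttr, Folr1, Kcnj13 and Clic6) was 37.6, 1155 and 40.8 in WT and 1058, 1087 and 42.2 in K146Q mice, with Ttr the most abundant in each and none of the 4 at 0. Thus WT mouse 2 and K146Q mice 60 and 62 stood apart from the other 3 libraries. In tissue sequenced in bulk, more cells of a type and more RNA per cell cannot be told apart.

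Igf2 and Igfbp2 were high in the same 3 libraries. Igf2 was at 31.2, 65.1 and 34.6 in WT and 69.5, 76.0 and 29.4 in K146Q hypothalamus. Igfbp2 was at 14.8, 27.4 and 12.01 in WT and 29.5, 31.4 and 11.5 in K146Q hypothalamus. In both genotypes the libraries with high Ttr were above all those with low Ttr. The log2 fold change between genotypes was 0.38 (95% interval -0.39 to 1.15) for Igf2 and 0.37 (-0.45 to 1.19) for Igfbp2. Without the 3 libraries with high Ttr, a setting chosen after seeing the data that leaves 2 WT mice and 1 K146Q mouse, they were -0.16 and -0.20.

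**Figure D2:**
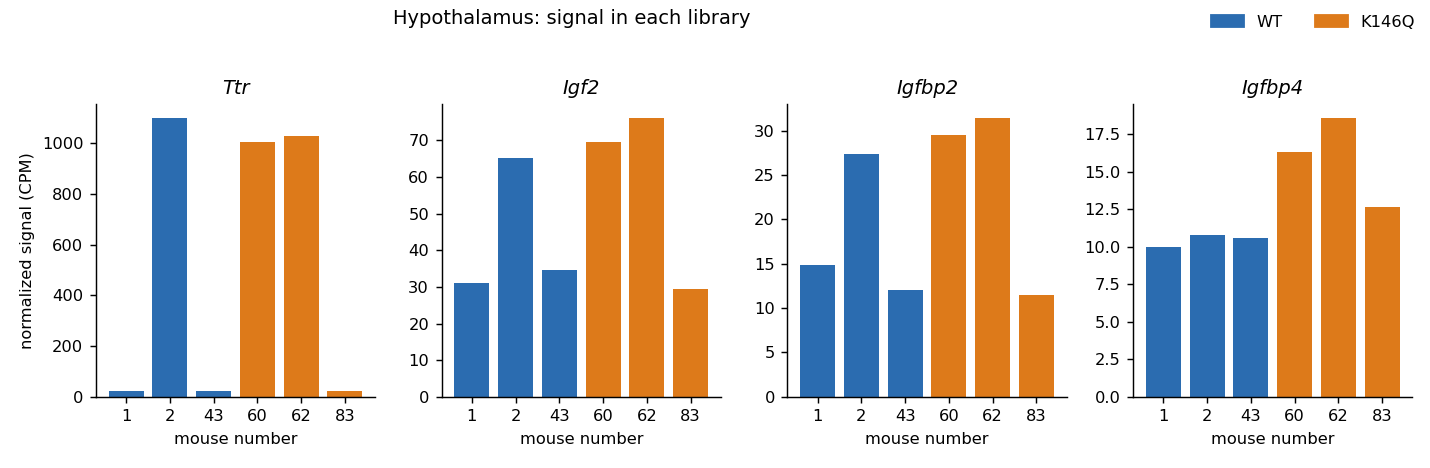
Signal (CPM, linear axis from 0) of Ttr, Igf2, Igfbp2 and Igfbp4 in each hypothalamus library, WT mice in blue and K146Q mice in orange. WT mouse 2 and K146Q mice 60 and 62 have 1006 to 1098 CPM of Ttr and the highest Igf2 and Igfbp2 of their genotype, and Igfbp4 is higher in every K146Q library.

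Igfbp4, which holds IGF until a protease cleaves it, was at 9.96, 10.8 and 10.6 in WT and 16.3, 18.6 and 12.6 in K146Q hypothalamus. The genotypes did not overlap, K146Q mice being higher by a log2 fold change of 0.56 (standard error 0.13), but with an adjusted p of 0.975 the difference did not pass the test. Among the K146Q mice the lowest value belonged to mouse 83, whose Ttr was low, and without the libraries with high Ttr, which leaves this K146Q mouse alone, the log2 fold change was 0.28. WT mouse 2, with high Ttr, was at the level of the other WT mice.

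The other 7 genes lay close together in both genotypes. Igf1 was between 8.07 and 12.1 CPM, Igf1r between 113 and 124, Igf2r between 55.2 and 61.0 and Igfbp3 between 8.86 and 10.2. Igfbp5 was between 253 and 318, Igfbp6 between 1.35 and 1.87, which is 25 to 35 reads, and Igfbp7 between 20.8 and 24.6. The 95% interval of the log2 fold change was -0.11 to 0.10 for Igf1r and -0.16 to 0.06 for Igf2r, and the widest among these 7 was that of Igfbp6, from -0.39 to 0.38.

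In the pituitary 2 of the 10 genes passed the test, where 9.86% of 15589 genes did. Igfbp3 was higher (6.36% of genes were) and the receptor Igf1r was lower (3.50% were) in K146Q mice. The genotypes did not overlap for 3 of the 10, Igf1r, Igfbp3 and Igfbp7, where 31.0% of all genes did not. For Igfbp7 the highest WT value (79.731) and the lowest K146Q value (79.735) were nearly equal, and its adjusted p by limma was 0.489. The split of all calls was 991 higher and 546 lower, and 837 higher and 879 lower with totals taken without the 10 highest genes. Igf1r and Igfbp3 kept their direction and call under that setting (log2 fold changes -0.47 and 0.45).

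Igfbp3 was at 127, 147 and 138 CPM in WT and 222, 190 and 176 in K146Q pituitary. Every K146Q mouse was above every WT mouse, and the fitted rise was 1.42-fold (log2 fold change 0.51, standard error 0.10, adjusted p = 0.0107). The gene passed in every fit that left out 1 mouse, with log2 fold changes from 0.41 to 0.58.

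Igf1r was at 309, 224 and 249 CPM in WT and 183, 200 and 199 in K146Q pituitary. The groups did not overlap, and the fall was 1.33-fold (log2 fold change -0.41, standard error 0.11, adjusted p = 0.0453). This call was close to the threshold. It was lost without the filter on low values (adjusted p = 0.0716) and without the variance trend (0.114). It was also lost without WT mouse 1 (0.0597), WT mouse 43 (0.0691), K146Q mouse 60 (0.185), K146Q mouse 62 (0.113) or K146Q mouse 83 (0.0829), with log2 fold changes from -0.51 to -0.28 over the 6 fits.

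The other 8 genes did not pass in the pituitary. Igf2r was at 93.4, 74.9 and 97.1 in WT and 122, 101 and 96.2 in K146Q mice, a log2 fold change of 0.27 (adjusted p = 0.196). Igfbp6 was at 4.49, 7.09 and 9.28 in WT and 3.97, 4.59 and 5.07 in K146Q mice, a log2 fold change of -0.52 (adjusted p = 0.194) that became -0.78 (adjusted p = 0.0344) without WT mouse 1, the lowest WT value. Igfbp4, at 60.8 to 83.8 in WT and 78.4 to 87.9 in K146Q mice, had a log2 fold change of 0.22 (adjusted p = 0.249).

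Igfbp5, the most abundant IGF transcript of the pituitary, was at 1706, 1706 and 1623 in WT and 1714, 1579 and 1562 in K146Q mice, a log2 fold change of -0.05 (95% interval -0.22 to 0.12) that became -0.28 (adjusted p = 0.0406) after quantile normalization. Igfbp7 ran from 66.6 to 79.7 in WT and from 79.7 to 81.9 in K146Q mice, and Igfbp2 from 13.1 to 15.3 in all 6 libraries. The ligands were low in both genotypes. Igf1 was between 6.84 and 10.5 and Igf2 between 18.8 and 30.5, with log2 fold changes of 0.14 (interval -0.22 to 0.51) and 0.06 (-0.34 to 0.46).

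These differences stood in pituitaries whose cell type markers also moved, where 6.36% of all genes were higher and 3.50% lower. The thyrotroph markers Tshb, Cga and Trhr all rose and summed to 3892, 3398 and 4609 CPM in WT and 28977, 26593 and 21859 in K146Q mice, Cga being the most abundant. Of the 5 microglia and macrophage markers found, 3 rose (Csf1r, Cx3cr1 and Emr1), and the list summed to 60.2, 58.9 and 64.7 in WT and 140, 117 and 94.0 in K146Q mice, with Csf1r the most abundant. Prl, the lactotroph marker, fell with a log2 fold change of -1.65 (adjusted p = 6.03e-04), and of the somatotroph markers Ghrhr fell by 0.48 (adjusted p = 0.0116). None of these markers was at 0 in any pituitary library. Among the other lists whose markers were all tested, 2 of 3 neuron, 1 of 5 endothelial and 1 of 4 corticotroph and melanotroph markers rose. Of the fibroblast markers 1 of 5 fell, as did 1 of 5 pericyte and smooth muscle and 1 of 4 astrocyte markers. The gonadotroph and folliculostellate lists had no call. The part of all these lists in the values of Igfbp3 and Igf1r was not tested.

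In the thyroid 6 of the 9 genes other than Igfbp2 passed the test, where 37.8% of 15200 genes did, 5 of them higher (19.7% of genes were) and 1 lower (18.1% were) in K146Q mice. The genotypes of the same 6 did not overlap, which was so for 52.3% of all genes. Igf1, Igfbp3, Igfbp4, Igfbp5 and Igfbp7 rose and Igf2 fell, while Igf1r, Igf2r and Igfbp6 did not pass. Igfbp2 is left out of these counts, because it passed the filter on low values through the K146Q libraries alone and so had to differ. The split of all calls was 2992 higher and 2747 lower, and 2496 higher and 3613 lower with totals taken without the 10 highest genes, under which the median log2 fold change of all genes was -0.12 in place of -0.03.

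**Figure D3:**
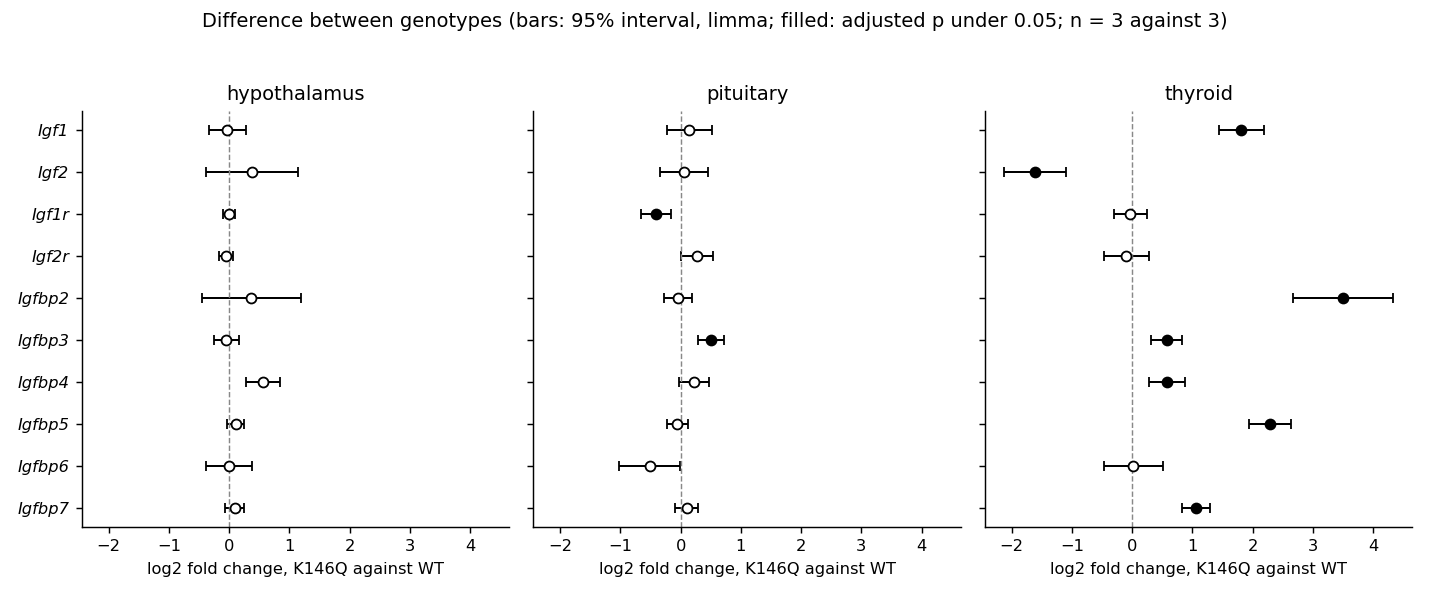
Log2 fold change (K146Q against WT) of each IGF gene in the 3 tissues, with 95% intervals from limma, 3 mice against 3. Filled points passed an adjusted p of 0.05, which were 0 of 10 genes in hypothalamus, 2 in pituitary (Igf1r lower, Igfbp3 higher) and 7 in thyroid, among them Igfbp2, which had to differ, and values there run from -1.61 (Igf2) to 3.50 (Igfbp2).

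The thyroid libraries differed in transcripts that mark other tissues. WT mouse 1 had 365 CPM of Gh, 95.9 of Cga and 35.9 of Tshb, where the other 5 thyroid libraries had at most 125, 16.1 and 5.69, and their source was not tested. The 4 skeletal muscle markers (Ckm, Acta1, Myh4 and Mylpf) summed to 238, 3405 and 5053 CPM in WT and 2969, 645 and 526 in K146Q mice, none at 0. The calls of Igf1, Igf2, Igfbp3, Igfbp4, Igfbp5 and Igfbp7 held in each of the 6 fits that left out 1 mouse.

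The ligands moved in opposite directions. Igf1 was at 43.4, 58.7 and 56.2 CPM in WT and 161, 229 and 172 in K146Q thyroid. Every K146Q mouse was far above the highest WT mouse, and the rise was 3.52-fold (log2 fold change 1.82, standard error 0.16, adjusted p = 2.24e-04). Igf2 was at 14.5, 17.3 and 17.7 in WT and 7.19, 3.76 and 4.75 in K146Q thyroid. It fell 3.05-fold (log2 fold change -1.61, standard error 0.22, adjusted p = 0.00133), on 64 to 295 reads per library. Per kilobase of exon, the scale on which genes can be compared, the signal of Igf1 went from 5.32 in WT to 18.9 in K146Q thyroid. That of Igf2 went from 3.15 to 0.997.

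Within the K146Q thyroids Igf2 was highest in mouse 60, whose muscle markers were also the highest of that genotype. K146Q mice 62 and 83 had the opposite order, with muscle markers at 645 and 526 and Igf2 at 3.76 and 4.75. Among the WT thyroids both were lowest in mouse 1 (238 and 14.5) and highest in mouse 43 (5053 and 17.7). The part of muscle RNA in the difference between genotypes was not tested. H19, the imprinted RNA beside Igf2, was at 1.52, 8.86 and 265 in WT and 45.4, 5.88 and 8.15 in K146Q thyroid. Within each genotype the mice had the same order for H19 as for Igf2.

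The receptors did not pass in the thyroid. Igf1r was at 295, 248 and 229 in WT and 228, 257 and 270 in K146Q mice, and the 95% interval of its log2 fold change was -0.30 to 0.25. Igf2r was at 242, 182 and 256 in WT and 183, 204 and 246 in K146Q mice, with an interval of -0.46 to 0.27. In both genes the genotypes overlapped.

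Per kilobase of exon, mean Igfbp5 went from 64.1 to 312 and mean Igfbp7 from 242 to 507 CPM per kb in the thyroid. Igfbp5 was at 345, 349 and 461 CPM in WT and 1832, 2012 and 1781 in K146Q thyroid, 4.90-fold higher (log2 fold change 2.29, standard error 0.15, adjusted p = 7.96e-05), beside 1618 ± 83.2 (SD, n = 3) in K146Q pituitary. Igfbp7 was at 307, 264 and 307 in WT and 607, 638 and 593 in K146Q thyroid, 2.1-fold higher (log2 fold change 1.07, standard error 0.10, adjusted p = 2.68e-04). The 3 K146Q values of each gene lay close together and far above WT.

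Igfbp2 was at 0.442, 0.0633 and 0.120 CPM in WT and 6.69, 12.2 and 4.69 in K146Q thyroid. These are 10 reads summed over the WT libraries and 423 over the K146Q libraries, a ratio of 37.6 after scaling for depth, with a 95% interval of 20.3 to 79.1 that covers counting error only. The fit gave a log2 fold change of 3.50, which ran from 2.80 to 5.26 over the alternative settings and is given without a test, since the gene entered the test only through its K146Q values. The mean of the K146Q thyroids, 7.87 ± 3.90 (SD, n = 3), was below the means of hypothalamus and pituitary, although mouse 62 at 12.2 was above the lowest hypothalamus library at 11.5.

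Igfbp3 and Igfbp4 rose by less. Igfbp3 was at 385, 395 and 417 in WT and 530, 663 and 595 in K146Q thyroid, 1.49-fold higher (log2 fold change 0.57, standard error 0.11, adjusted p = 0.00615). Igfbp4 was at 174, 149 and 175 in WT and 290, 242 and 216 in K146Q thyroid, also 1.49-fold higher (log2 fold change 0.58, standard error 0.13, adjusted p = 0.00971). For both the lowest K146Q mouse was above the highest WT mouse.

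Igfbp6, which binds IGF2 in preference to IGF1, was at 22.0, 20.4 and 36.6 in WT and 28.4, 23.9 and 25.4 in K146Q thyroid. The groups overlapped and the interval of the log2 fold change was -0.47 to 0.51. Its estimate of 0.02 was so near 0 that edgeR (-0.02), DESeq2 (-0.02) and totals without the 10 highest genes (-0.07) gave the other sign.

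Whether the genotype difference itself differed between tissues was tested as an interaction in the fit of all 18 libraries. The same mice gave all 3 tissues, but this fit had no term for the mouse and treated the libraries as independent. Between thyroid and hypothalamus it differed for 6 of the 10 genes, where it did for 30.8% of 17140 genes, and between thyroid and pituitary for 5, where it did for 33.8%. Both counts include Igfbp2, which entered this fit through hypothalamus and pituitary as well. Between pituitary and hypothalamus it differed for 1, Igfbp3, where it did for 3.24% of genes. With the mouse number as a block, these counts of IGF genes were 6, 6 and 0 in the same order. Of all 17140 genes 5495, 5955 and 576 then passed.

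The genotype effect on Igf1 was larger in thyroid than in hypothalamus by 1.85 on the log2 scale (adjusted p = 2.68e-05) and than in pituitary by 1.67 (adjusted p = 6.12e-05). That on Igf2 was lower in thyroid by 1.99 (log2 difference -1.99, adjusted p = 0.00339) and 1.67 (log2 difference -1.67, adjusted p = 0.00994). For Igfbp5 the differences were 2.18 (adjusted p = 1.13e-08) and 2.35 (adjusted p = 3.52e-09), for Igfbp7 0.97 (adjusted p = 4.47e-06) and 0.96 (adjusted p = 4.16e-06), and for Igfbp2 3.13 (adjusted p = 2.24e-04) and 3.54 (adjusted p = 5.97e-05).

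Igfbp3 rose by a like amount in pituitary and thyroid (log2 difference 0.07, 95% interval -0.21 to 0.34), and its effect in thyroid exceeded that in hypothalamus by 0.62 (adjusted p = 0.00155; 0.0526 after quantile normalization). Its effect in pituitary exceeded that in hypothalamus by 0.55 (adjusted p = 0.0238). The last call was lost with the mouse number as a block (adjusted p = 0.0513), with edgeR (0.0546), with totals taken without the 10 highest genes (0.0535) and without WT mouse 1 (0.137), WT mouse 43 (0.0963), K146Q mouse 60 (0.0598) or K146Q mouse 62 (0.107). Without the libraries with high Ttr, which leaves 1 K146Q hypothalamus, the difference was 0.56. For Igf1r the effect in thyroid and that in pituitary differed by 0.38 (adjusted p = 0.0587), which passed with the mouse number as a block (adjusted p = 0.0264), with median-of-ratios scaling (0.0431), quantile normalization (0.0499) and DESeq2 (0.0312), and without WT mouse 1 (0.0332) or WT mouse 2 (0.0428). For Igf2r the same difference was -0.36 (adjusted p = 0.146), and it passed after quantile normalization (-0.47, adjusted p = 0.0452). The effect on Igfbp4 in thyroid was close to that in hypothalamus (log2 difference 0.02, 95% interval -0.38 to 0.42, adjusted p = 0.954). Its call in thyroid and the absence of one in hypothalamus therefore do not show a difference between the tissues.

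The make-up of the binding protein transcripts was described as the share of each in the summed signal per kilobase of exon of Igfbp2 to Igfbp7, which does not depend on the scale between libraries. In the WT thyroid Igfbp7 made up 48.5 ± 2.15% (SD, n = 3), Igfbp3 25.6 ± 1.64%, Igfbp5 12.8 ± 1.32%, Igfbp4 8.47 ± 0.368% and Igfbp6 4.68 ± 1.2%. In the K146Q thyroid Igfbp5 made up 28.3 ± 0.356%, in mice 60, 62 and 83 at 28.2%, 28.7% and 28.0% against 11.5%, 12.7% and 14.2% in the WT mice. Igfbp7 was at 46.0 ± 0.671%, Igfbp3 at 17.3 ± 1.39%, Igfbp4 at 5.78 ± 0.923% and Igfbp6 at 2.12 ± 0.260%, all below their WT shares without overlap, although Igfbp7, Igfbp3 and Igfbp4 rose in signal. The summed signal per kilobase of the 6 genes went from 499.9 ± 41.2 CPM per kb in WT to 1102 ± 57.1 in K146Q thyroid.

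**Figure D4:**
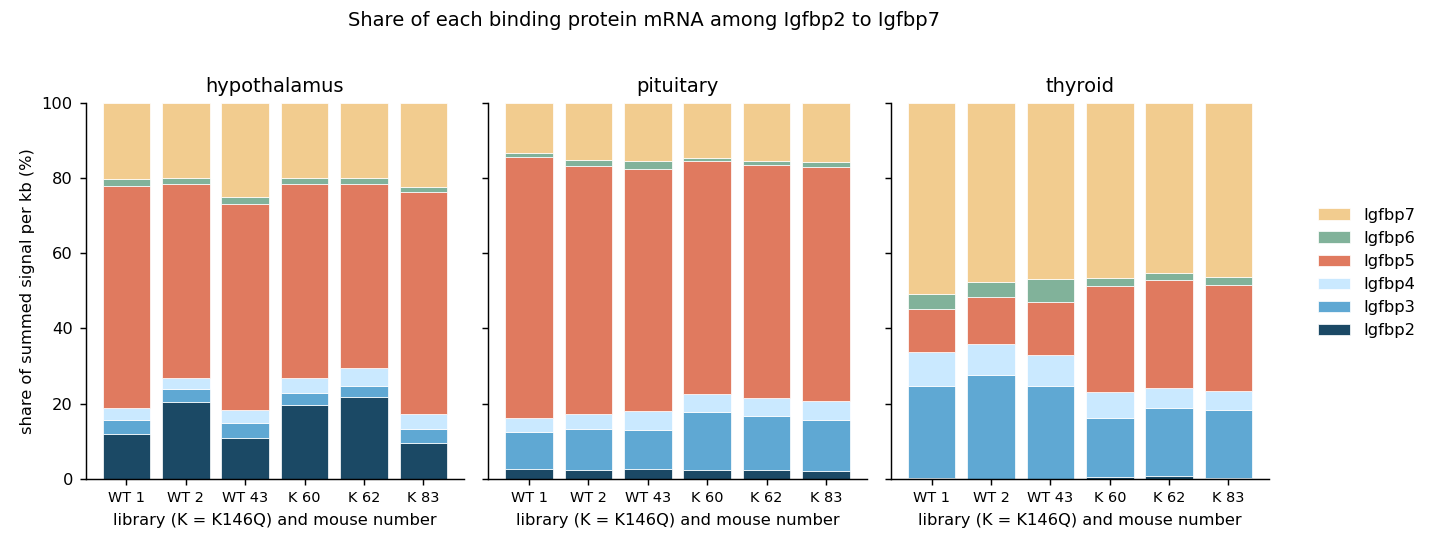
Share (%) of each binding protein in the summed signal per kilobase of exon of Igfbp2 to Igfbp7, 1 bar for each library. Igfbp5 is the largest share in every hypothalamus and pituitary library and Igfbp7 in every thyroid library, and the Igfbp5 share of the thyroid is 11.5% to 14.2% in WT and 28.0% to 28.7% in K146Q mice.

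In the other tissues the share of Igfbp5 moved less than in the thyroid. It was 55.1 ± 3.85% in WT and 53.3 ± 5.26% in K146Q hypothalamus. In the pituitary it was 66.6 ± 2.59% in WT and 62.1 ± 0.207% in K146Q mice, without overlap. Igfbp4 was 3.17 ± 0.304% in WT and 4.24 ± 0.486% in K146Q hypothalamus, also without overlap. Igfbp3 was 10.4 ± 0.511% in WT and 14.4 ± 0.989% in K146Q pituitary, the highest WT library at 10.9% and the lowest K146Q library at 13.5%. In the hypothalamus Igfbp2 took 20.5% in WT mouse 2 and 19.7% and 21.7% in K146Q mice 60 and 62, the libraries with high Ttr. It took 9.48% to 11.9% in the other 3. Without division by length the long transcript of Igfbp5 weighs more and Igfbp5, not Igfbp7, is the largest share of the K146Q thyroid (55.7% against 18.2%).

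Of the genes around the IGF system, 59 in 6 lists, 0 passed in the hypothalamus by limma. In the thyroid 4 of the 7 secreted regulators of IGF binding that were tested rose and 1 fell (median log2 fold change 0.87, against -0.03 for all genes), where 19.7% of all genes rose and 18.1% fell. Pappa, a protease that cleaves IGFBP4 and frees IGF, was at 48.1, 44.9 and 41.9 in WT and 96.7, 137 and 133 in K146Q mice (log2 fold change 1.42, adjusted p = 3.34e-04), and its relative Pappa2 rose by 0.87 on the log2 scale (adjusted p = 0.0229), at 1.02 to 1.64 in WT and 2.38 to 3.88 in K146Q mice. Stc1, a stanniocalcin that inhibits these proteases, was at 22.5, 20.5 and 23.1 in WT and 55.3, 59.8 and 50.2 in K146Q mice (1.30, adjusted p = 1.17e-04), so that a protease and its inhibitor rose together.

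Adamts1, a secreted metalloprotease, was at 29.1 to 31.7 in WT and 65.1 to 92.3 in K146Q thyroid (log2 fold change 1.27, adjusted p = 4.82e-04). Igfals, the acid-labile subunit that joins IGF and IGFBP3 in a ternary complex, fell by 1.32 (adjusted p = 0.00236), from 7.58, 6.58 and 7.82 to 3.32, 1.88 and 2.87. In the pituitary Igfals was at 0.267, 0.172 and 0 CPM in WT and 2.22, 0.919 and 0.803 in K146Q mice, on 43 reads at most, and is given without a test because it passed the filter only through the K146Q libraries.

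Below the receptor, the thyroid genes for receptor relatives and adaptors changed in both directions, 2 of 10 higher and 4 lower, where 19.7% and 18.1% of all genes were. Irs2 rose by 1.5 on the log2 scale (adjusted p = 0.00265), at 37.0, 25.8 and 47.2 in WT and 77.0, 113 and 119 in K146Q mice, while Irs1, the related docking protein, fell by 1.54 (adjusted p = 2.48e-04), from 18.6, 23.3 and 20.7 to 7.48, 5.88 and 7.21. Insrr, the insulin receptor-related receptor, fell by 3.29 (adjusted p = 1.78e-05), from 11.9, 12.9 and 11.4 to 0.892, 0.705 and 0.762. Grb10, an adaptor that dampens signaling by IGF1R and the insulin receptor, fell by 0.78 (adjusted p = 4.63e-04), Irs4 fell by 1.29 (adjusted p = 0.0160) and Grb2 rose by 0.21 (adjusted p = 0.0394). The insulin receptor Insr itself had a log2 fold change of -0.07 (adjusted p = 0.684). In the pituitary 2 of the 9 genes tested in this list rose and 0 fell, where 6.36% and 3.50% of all genes did. Irs4, a docking protein of the same family, was at 128, 69.4 and 50.4 in WT and 351, 312 and 278 in K146Q pituitary (log2 fold change 2.02, adjusted p = 0.00162), and the adaptor Grb14 rose by 0.69 (adjusted p = 0.0226).

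The PI3K-AKT-mTOR genes that passed in the thyroid were all lower, 7 of 18 tested (median log2 fold change -0.20), where 37.8% of all genes passed and 18.1% were lower. Foxo1, the transcription factor that AKT keeps out of the nucleus, fell by 0.44 (adjusted p = 0.00492), and Rps6kb1, the S6 kinase, by 0.41 (adjusted p = 0.00773). Pdpk1, the kinase that activates AKT, fell by 0.49 (adjusted p = 0.0189), Akt2 by 0.37 (adjusted p = 0.0318) and Mtor by 0.33 (adjusted p = 0.0200). The pituitary had 1 call among the 18, Akt2, which fell by 0.46 (adjusted p = 0.0133), where 9.86% of all genes passed.

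Of the 7 genes of the growth hormone pathway 2 fell in the thyroid and 0 rose, where 37.8% of all genes passed. They were the transcription factors Stat5a (log2 fold change -0.74, adjusted p = 0.00322) and Stat5b (-0.56, adjusted p = 0.0119). The growth hormone receptor Ghr was at 46.5, 63.0 and 72.5 in WT and 49.6, 41.7 and 39.0 in K146Q thyroid (adjusted p = 0.0660, but 0.0292 with DESeq2, 0.0337 with totals taken without the 10 highest genes and 0.0112 without WT mouse 1), and Socs2, a target of growth hormone signaling, at 40.4, 48.5 and 66.6 in WT and 63.8, 64.3 and 62.1 in K146Q thyroid (adjusted p = 0.169, but 0.0113 without WT mouse 43). In the pituitary Stat5a fell by 0.56 (adjusted p = 0.0194), and Gh was at 97779, 125476 and 213048 in WT and 62503, 74182 and 75385 in K146Q mice without passing the test (log2 fold change -0.97, adjusted p = 0.0737), though it passed with edgeR (0.0246) and DESeq2 (0.0354).

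**Figure D5:**
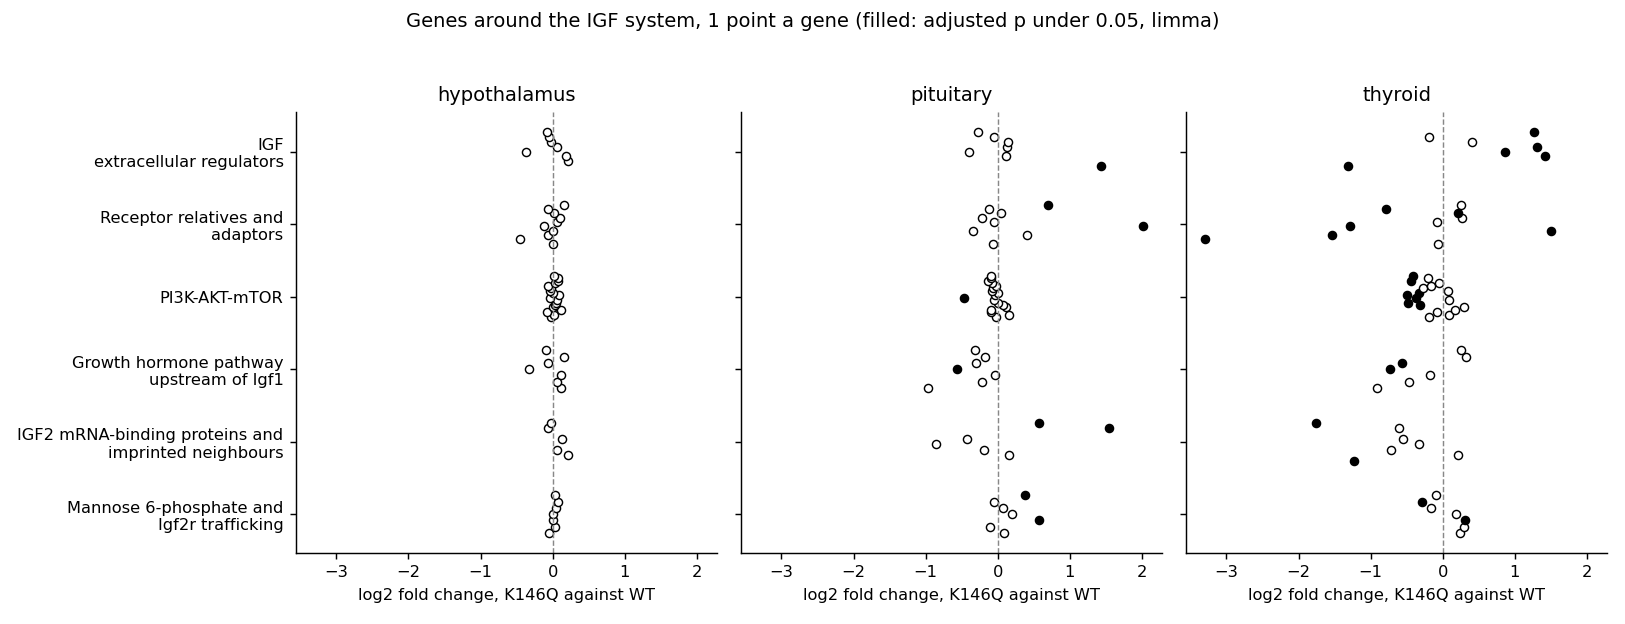
Log2 fold change (K146Q against WT) of the genes in 6 lists around the IGF system, 1 point a gene, filled where the adjusted p was under 0.05 (limma). The hypothalamus has 0 filled points, the PI3K-AKT-mTOR genes that passed in thyroid are all below 0, and the extracellular regulators that passed there are at 0.87 to 1.42 apart from Igfals at -1.32.

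Of the imprinted genes and IGF2 mRNA-binding proteins, 2 of 6 tested rose in the pituitary, where 6.36% of all genes did, and 2 of 7 fell in the thyroid, where 18.1% did. The difference between the tissues was not tested. Dlk1 and Plagl1 rose in the pituitary by 1.54 (adjusted p = 3.38e-04) and 0.58 (adjusted p = 0.0142). In the thyroid Plagl1, a zinc finger transcription factor, fell by 1.76 (adjusted p = 0.00129), from 15.3, 18.8 and 10.7 to 5.10, 3.23 and 3.75, and Igf2bp1, which binds Igf2 mRNA, fell by 1.23 (adjusted p = 0.0134). Around IGF2R trafficking, 2 of 7 genes rose in the pituitary and 0 fell, where 6.36% and 3.50% of all genes did. In the thyroid 1 of 7 rose and 1 fell, where 37.8% of all genes passed. Gnptg, a subunit of the enzyme that starts the mannose 6-phosphate tag, rose in pituitary (0.58, adjusted p = 0.00243) and thyroid (0.31, adjusted p = 0.0357). Vps29 rose in pituitary (0.37, adjusted p = 0.0172) and Vps26a fell in thyroid (log2 fold change -0.29, adjusted p = 0.0177).

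Markers of other cell types also moved in the thyroid, where 19.7% of all genes were higher and 18.1% lower. All 5 pericyte and smooth muscle markers rose (Pdgfrb, Rgs5, Notch3, Acta2 and Myh11), summing to 356, 361 and 299 CPM in WT and 482, 567 and 654 in K146Q mice. Of the 5 macrophage markers found, 4 rose (Csf1r, Cx3cr1, Emr1 and Cd68), summing to 124, 85.8 and 112 in WT and 231, 244 and 234 in K146Q mice, with Csf1r the most abundant. Of the 5 fibroblast markers Col1a1 and Col1a2 rose and Dcn and Pdgfra fell, and the list summed to 846, 719 and 842 in WT and 1353, 1569 and 1539 in K146Q mice.

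Of the 5 endothelial markers Pecam1 and Cdh5 rose. The pericyte and macrophage markers that passed all rose, as did Igf1, Igfbp3, Igfbp4, Igfbp5 and Igfbp7, while the fibroblast markers were split, and the part of these lists in the rise of the IGF genes was not tested. Tg, the most abundant transcript of the follicular list, was at 349907, 357296 and 293439 CPM in WT and 83869, 96214 and 130421 in K146Q thyroid, without overlap. Its log2 fold change of -1.71 did not pass (standard error 5.14, adjusted p = 0.820, limma), but it passed without the variance trend (standard error 0.18, adjusted p = 0.00127), with edgeR (0.0221) and with DESeq2 (1.42e-21). Tshr, Pax8 and Nkx2-1 rose and Foxe1 fell.

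Markers of fat and of the parathyroid fell in the thyroid, where 18.1% of all genes were lower. Of the 5 adipocyte markers 4 fell (Adipoq, Plin1, Fabp4 and Lep), the list summing to 704, 799 and 1148 in WT and 401, 191 and 216 in K146Q mice, with Fabp4 or Cfd the most abundant. Both brown adipocyte markers fell, summing to 224, 160 and 64.7 in WT and 10.3, 13.2 and 1.06 in K146Q mice. All 3 parathyroid markers fell, summing to 3454, 6409 and 4129 in WT and 1569, 523 and 622 in K146Q mice, nearly all of it Pth. Calca, which encodes calcitonin of the C cells, fell with a log2 fold change of -3.48 (adjusted p = 1.05e-04). Calcb, the other C cell marker, was at 0, 0.316 and 0 CPM in WT and 2.13, 3.29 and 3.75 in K146Q thyroid, on 0 to 64 reads, and is given without a test because it passed the filter only through the K146Q libraries. No marker of the fat or parathyroid lists was at 0 in any thyroid library. The part of these tissues in the fall of Igf2, Igfals and Irs1 was not tested.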

How the data were processed

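RNA-Seq of total RNA was performed on 18 libraries, and per the submitters' processing notes bcl2fastq 2.17, Bowtie2 2.1.0 and RSEM 1.2.15 with the mouse build mm10 were used. The authors deposited 1 table per tissue with a normalized signal for each library and gene, in counts scaled to an adjusted size of the library (CPM), and an average log2 value for each gene over all libraries. Library sums of the signal ran from 896894 to 1269759. These log2 values were the same in the 3 tables for 24027 of 24027 symbols compared, so levels were compared across tissues. All 432972 values (100%) were whole multiples of the value of 1 read, within 0.001 of a read, and 1 read was worth 0.0445 to 0.0633 CPM. Libraries held 14902330 to 21230050 reads, and 3 reads correspond to 0.133 to 0.190 CPM. Columns with fold changes and p-values of the authors were not used.

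Genes that reached 0.5 CPM in 3 or more libraries were tested with limma 3.58.1 in R 4.3.3 on log2(CPM + 0.5) with a variance trend, 3 mice against 3 in each tissue, and in all 18 libraries for levels in WT mice and for interactions. p-values were adjusted by the Benjamini-Hochberg method over all genes tested, with a threshold of 0.05. The main fit of all 18 libraries had no term for the mouse, and the mouse number as a block was an alternative. Other alternatives were pseudocounts of 0.1 and 1, other filters and scalings, edgeR 4.0.16 and DESeq2 1.42.0 on the recovered reads, and leaving out each mouse. The genotypes share no mouse and were not paired. Mouse numbers pair the tissues, since per the series' design 3 mice of each genotype gave the tissues and the same 3 numbers recur in each. Deviations from the group mean correlated with a median of 0.102 for the same mouse in different tissues (18 pairs, -0.0668 to 0.240). For different mice the median was -0.0284 (36 pairs, -0.193 to 0.0853). Deviations within a group cancel out, so the value for different mice is tied to that for the same mice and is no separate check. No 2 replicates were alike within counting noise (lowest chi-square 5.87 per degree of freedom).

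The 10 genes and all lists were chosen with earlier results of these data known. From each list up to 6 genes past the threshold were named for a comparison, with marker genes as level checks. Thrb, Insr, Ghr, Socs2 and H19 were named after their values were seen. Signal per kilobase used the union of exons in GENCODE M21, and promoters came from RefSeq.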

Additional observations from a re-analysis of the deposited data

Results flagged for a closer look

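The genotype difference of 6 IGF genes differed between tissues by an interaction term (limma without a term for the mouse, adjusted over 17140 genes). Values are differences between log2 fold changes of K146Q against WT mice. For Igf1 the thyroid effect exceeded that in hypothalamus by 1.85 and that in pituitary by 1.67. For Igf2 the thyroid effect was lower, with differences of -1.99 against hypothalamus and -1.67 against pituitary. For Igfbp2 the differences were 3.13 and 3.54, on 10 reads in the WT thyroids. For Igfbp5 they were 2.18 and 2.35, and for Igfbp7 0.97 and 0.96. For Igfbp3 the thyroid effect exceeded the hypothalamus effect by 0.62, and the pituitary effect exceeded it by 0.55, which did not hold with the mouse number as a block (adjusted p = 0.0513).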

How the results depend on the processing

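The calls of Igf1, Igf2, Igfbp3, Igfbp4, Igfbp5 and Igfbp7 in the thyroid and of Igfbp3 in the pituitary held under every alternative run. The number of genes called in the hypothalamus was 0, but 9 with DESeq2, 11 without the libraries with high Ttr and 0 to 6 when 1 mouse was left out. The setting without the libraries with high Ttr leaves 1 K146Q hypothalamus, which is assumed to vary like the other libraries. The number of IGF genes called in the pituitary was 2, but 3 after quantile normalization, 1 without the filter, 1 without the variance trend and 1 to 2 when 1 mouse was left out. Genes called numbered 625 to 1345 in pituitary and 3602 to 5106 in thyroid when 1 mouse was left out.

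Igfbp3 was the 1 IGF gene whose effect differed between pituitary and hypothalamus, and this count was 0 with totals taken without the 10 highest genes, with edgeR, without the libraries with high Ttr and with the mouse number as a block, and 0 to 1 when 1 mouse was left out. All genes called there numbered 343 with at least 1 CPM in every library, 120 without the libraries with high Ttr and 228 to 446 when 1 mouse was left out. Between thyroid and hypothalamus they numbered 2795 without the libraries with high Ttr and 3476 to 4680 when 1 mouse was left out. The block on mouse number, which pairs the tissues, changed no other IGF call than that of Igfbp3 (adjusted p = 0.0513) and that of Igf1r between thyroid and pituitary (0.0264).

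Without division by length the binding protein shares were 31.5% for Igfbp3 in WT thyroid. For Igfbp5 they were 81.8% (WT) and 80.2% (K146Q) in hypothalamus, 84.6% (WT) and 81.1% (K146Q) in pituitary, 30.2% (WT) and 55.7% (K146Q) in thyroid, and for Igfbp7 23.1% and 18.2% in thyroid.

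Some log2 values changed sign. Without the libraries with high Ttr, Igf2 and Igfbp2 of the hypothalamus were at -0.16 and -0.20, their differences between pituitary and hypothalamus effects at 0.22 and 0.16, and the WT difference of Igfbp2 between pituitary and hypothalamus at 0.13. With totals taken without the 10 highest genes, Igfbp6 of the thyroid was at -0.073, the WT differences of Igf1 and Igfbp2 between pituitary and hypothalamus at 0.033 and 0.068, the pituitary minus hypothalamus effect of Igfbp7 at -0.052, and the thyroid minus hypothalamus effects of Igfbp4 and Igfbp6 at -0.073 and -0.066. With edgeR, Igfbp6 of the thyroid was at -0.022 and those effects at -0.035 and -0.044. With DESeq2, Igfbp6 was at -0.017 and its effect at -0.0039. After quantile normalization the thyroid minus hypothalamus effect of Igfbp4 was at -0.11 and the thyroid minus pituitary effect of Igfbp3 at -0.16.

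When 1 mouse was left out, log2 fold changes in the hypothalamus ran from -0.18 to 0.10 for Igf1, -0.044 to 0.020 for Igf1r, -0.086 to 0.00088 for Igfbp3 and -0.079 to 0.10 for Igfbp6. In the pituitary they ran from -0.0018 to 0.29 for Igf1, -0.12 to 0.22 for Igf2 and -0.090 to 0.013 for Igfbp2. In the thyroid they ran from -0.11 to 0.074 for Igf1r, -0.25 to 0.00084 for Igf2r and -0.13 to 0.28 for Igfbp6. WT differences ran from -0.48 to 0.16 for Igfbp2 between pituitary and hypothalamus and -0.095 to 0.042 for Igf1r between thyroid and pituitary. Effects ran from -0.031 to 0.052 for Igfbp7 (pituitary minus hypothalamus) and -0.032 to 0.24 for Igfbp3 (thyroid minus pituitary). Thyroid minus hypothalamus effects ran from -0.097 to 0.087 for Igf1r, -0.22 to 0.049 for Igf2r, -0.079 to 0.16 for Igfbp4 and -0.14 to 0.36 for Igfbp6. The causes of these changes were not tested. Nothing says more of the replicates than that they are separate mice. Depth limited the fold change of Igfbp2 in the thyroid, where the WT libraries held 10 reads.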
